A study of Mus musculus with 12 samples.

Results

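Fatty acid uptake and oxidation genes were examined in C2C12GFP cells, a mouse skeletal muscle myoblast line that expresses green fluorescent protein and can fuse into myotubes. The genes were chosen by name and comprised *Cd36*, *Fabp3*, *Lpl*, *Cpt1a*, *Cpt1b*, *Cpt2*, *Acadm*, *Acadl*, *Acadvl*, and *Hadha*, which are 10 of the 55536 genes in the table of read counts. The plates were either left uncoated (control) or carried a layer of Collagen I, of fibronectin, or of Geltrex™, and each of these 4 groups had 3 samples. Geltrex™ is a basement membrane preparation made up mainly of laminin, collagen IV, and entactin. All groups carried the same line with the same reporter, so the samples are cultures of 1 established line and not separate animals. The study induced differentiation with a low-serum medium, and the day on which the RNA for sequencing was taken is not given in the sources used here. The study compared the coatings to learn how a matrix bears on the fiber type that myoblasts take on, and fatty acid use is a feature of slow, oxidative fibers.

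Long-chain fatty acids reach muscle from the blood bound to albumin or after lipoprotein lipase (*Lpl*) has released them from triglyceride-rich lipoproteins. CD36 moves them across the plasma membrane, and the heart and muscle fatty acid-binding protein (*Fabp3*) carries them in the cytosol. After activation to acyl-CoA, the carnitine palmitoyltransferases of the outer membrane (*Cpt1a* and *Cpt1b*) and the inner membrane (*Cpt2*) pass them into the mitochondrion. CPT1 is the step that malonyl-CoA inhibits, and *Cpt1b* is the isoform of adult muscle, whereas *Cpt1a* is the isoform of liver and many other tissues. Inside, acyl-CoA dehydrogenases for very long (*Acadvl*), long (*Acadl*), and medium (*Acadm*) chains start each round of β-oxidation, and the mitochondrial trifunctional protein, whose α-subunit is encoded by *Hadha*, carries out the following steps on long chains.

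Total counts per sample lay between 22520404 and 27351766. Values are given as CPM, which are counts relative to the library sizes after scaling by edgeR's TMM method. The 3 Geltrex™ samples were closer to one another than those of any other group (chi-square per degree of freedom 2.15 to 4.39, against 7.49 to 62.9 for the other pairs of replicates), though they still differed by more than sampling noise. The Collagen I sample numbered 3 stood apart from the other 2, at 43.0 and 62.9. The label of muscle cells was checked on 8 markers of myotubes, all of which were tested and none of which was at 0, and their summed level was 8520 to 9465 CPM in the control, 9194 to 9472 CPM on Collagen I, 2776 to 3280 CPM on fibronectin, and 4109 to 4401 CPM on Geltrex™. The 8 markers were lower on fibronectin and on Geltrex™ than in the control (8 of 8 in each comparison, median log2 fold changes −2.02 and −1.61). Between Collagen I and the control edgeR called none of them, DESeq2 called 1 higher, and 1 had an unadjusted p under 0.05. Markers of myoblasts and dividing cells added up to 178 to 216 CPM in the control and 157 to 161 CPM on Collagen I. They added up to 505 to 652 CPM on fibronectin and 524 to 581 CPM on Geltrex™. The myoblast markers of that list did not follow the sum. Group means of *Myf5* were 32.5 to 36.1 CPM, and those of *Pax7*, near the floor, were 0.217 to 0.558 CPM, highest in the control. In bulk RNA, fewer cells of a type and less RNA per cell cannot be told apart, and this bears on every comparison with fibronectin or Geltrex™ described here. Adipocytes, endothelial cells, and macrophages also express *Cd36* or *Lpl*, and only 1 marker of each list passed the filter, namely *Pparg* of 8, *Tek* of 5, and *Cd68* of 5. The summed levels were 10.48 to 18.1 CPM for adipocyte markers, 0.897 to 3.53 CPM for endothelial markers, and 0.660 to 1.59 CPM for macrophage markers, and the defining *Adipoq*, *Cdh5*, and *Csf1r* had at most 2, 2, and 5 counts in a sample, with *Adgre1*, another macrophage marker, at 0 in all 12. *Pparg* was higher on fibronectin (0.57) and on Geltrex™ (0.48) than in the control.

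The sequences just upstream of the annotated start are shown for *Cd36* and *Fabp3*, which differed most between coatings, for *Cpt1a*, which differed the other way, and for *Hadha*, which shares its upstream region with the gene of its partner subunit. They are the 250 bases before the start in RefSeq on GRCm38.p6, read 5′ to 3′ on the strand of the gene. Capitals mark AGGTCA or its reverse complement TGACCT, the half-site of nuclear receptors such as the PPARs, and CAGCTG, a palindromic E-box of the kind that myogenic factors bind. *Cd36* has several annotated starts, and the window belongs to the one that RefSeq lists. The starts in RefSeq differ from the ends of the GENCODE gene spans given below. The windows of *Cd36* and *Cpt1a* lie inside those spans, and the windows of *Fabp3* and *Hadha* lie partly inside. The windows lie at chr5:17835897-17836146 (minus strand, *Cd36*), chr4:130308488-130308737 (plus strand, *Fabp3*), chr19:3323051-3323300 (plus strand, *Cpt1a*), and chr5:30154981-30155230 (minus strand, *Hadha*).
Cd36: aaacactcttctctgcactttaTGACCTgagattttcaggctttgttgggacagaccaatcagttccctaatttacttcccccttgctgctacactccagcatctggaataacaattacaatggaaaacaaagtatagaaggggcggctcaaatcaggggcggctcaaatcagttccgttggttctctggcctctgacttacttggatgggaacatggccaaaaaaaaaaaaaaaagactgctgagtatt
Fabp3: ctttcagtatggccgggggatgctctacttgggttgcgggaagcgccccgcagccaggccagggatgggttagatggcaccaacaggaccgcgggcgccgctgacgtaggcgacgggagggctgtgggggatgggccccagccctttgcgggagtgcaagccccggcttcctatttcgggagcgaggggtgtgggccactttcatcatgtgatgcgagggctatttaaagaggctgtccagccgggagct
Cpt1a: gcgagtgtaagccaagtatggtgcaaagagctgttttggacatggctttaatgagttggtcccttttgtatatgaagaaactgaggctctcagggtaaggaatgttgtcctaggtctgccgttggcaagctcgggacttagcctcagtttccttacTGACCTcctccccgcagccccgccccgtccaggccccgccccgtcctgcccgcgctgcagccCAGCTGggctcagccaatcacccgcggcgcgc
Hadha: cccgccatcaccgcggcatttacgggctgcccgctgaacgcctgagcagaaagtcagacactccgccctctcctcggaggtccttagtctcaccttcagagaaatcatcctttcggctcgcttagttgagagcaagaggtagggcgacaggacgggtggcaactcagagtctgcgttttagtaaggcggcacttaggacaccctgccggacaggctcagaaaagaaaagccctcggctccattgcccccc

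Windows were found for 8 of the 10 genes, and those of *Lpl* and *Cpt1b* were not analysed here. AGGTCA on either strand was present in 4 of the 8 windows (*Cd36*, *Cpt1a*, *Acadm*, and *Acadvl*), whereas 14.024% of all 32851 windows of that length hold it. The longer AAGGTCA, which contains AGGTCA, was present in *Acadm* alone, against 4.079% of all windows, and CAGCTG in *Cpt1a* alone, against 13.001%. None of the 8 windows held TATAAA (12.368% of all windows) or a MEF2 motif (2.919%). These matches describe letters and not occupied sites. The *Hadha* window and that of *Hadhb*, which is transcribed in the opposite direction from a start 272 bases away, have 228 bases in common (chr5:30155003-30155230).

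Of the 10 genes, 9 passed the filter on low counts and were tested among 14499 genes, and *Cpt1b* did not. A gene was called when its adjusted p in edgeR's quasi-likelihood test was at most 0.05, with no minimum fold change. On Collagen I relative to fibronectin, 6 of the 9 genes were higher and 1 was lower, while 22.1% of all genes tested were higher and 22.9% lower. On Collagen I relative to Geltrex™, 4 were higher and 2 lower, against 18.2% and 19.0% of all genes. Relative to the control, fibronectin had 1 gene higher and 4 lower (17.1% and 14.7% of all genes), and Geltrex™ had 2 higher and 3 lower (16.4% and 16.6%). On fibronectin relative to Geltrex™, 3 genes were lower (9.06% of all genes), and none was higher in edgeR (10.3% of all genes), by DESeq2, or at an unadjusted p under 0.05. None of the 9 was called on Collagen I relative to the control in edgeR or DESeq2, where 0.200% of all genes were higher and 0.917% lower, and 3 had an unadjusted p under 0.05 in edgeR (*Cd36*, *Fabp3*, and *Cpt1a*).

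The size of the differences separated the genes more than their number. The median log2 fold change of the 9 genes was 0.28 for Collagen I relative to fibronectin and 0.09 relative to Geltrex™, beside medians of 0.02 and 0.03 over all genes. Relative to the control it was 0.07 on Collagen I, −0.27 on fibronectin, and −0.18 on Geltrex™, and it was −0.13 for fibronectin relative to Geltrex™, with medians over all genes between −0.02 and −0.003. The uptake genes *Cd36* and *Fabp3* differed by over 1.9 on the log2 scale between Collagen I and the other 2 coatings, whereas none of the 6 tested genes of the set in the carnitine and β-oxidation steps differed by more than 0.57 in any comparison. The study itself names *Cd36*, *Fabp3*, and *Acadm* from these samples, so their differences between coatings are not independent evidence.

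**Figure D1:**
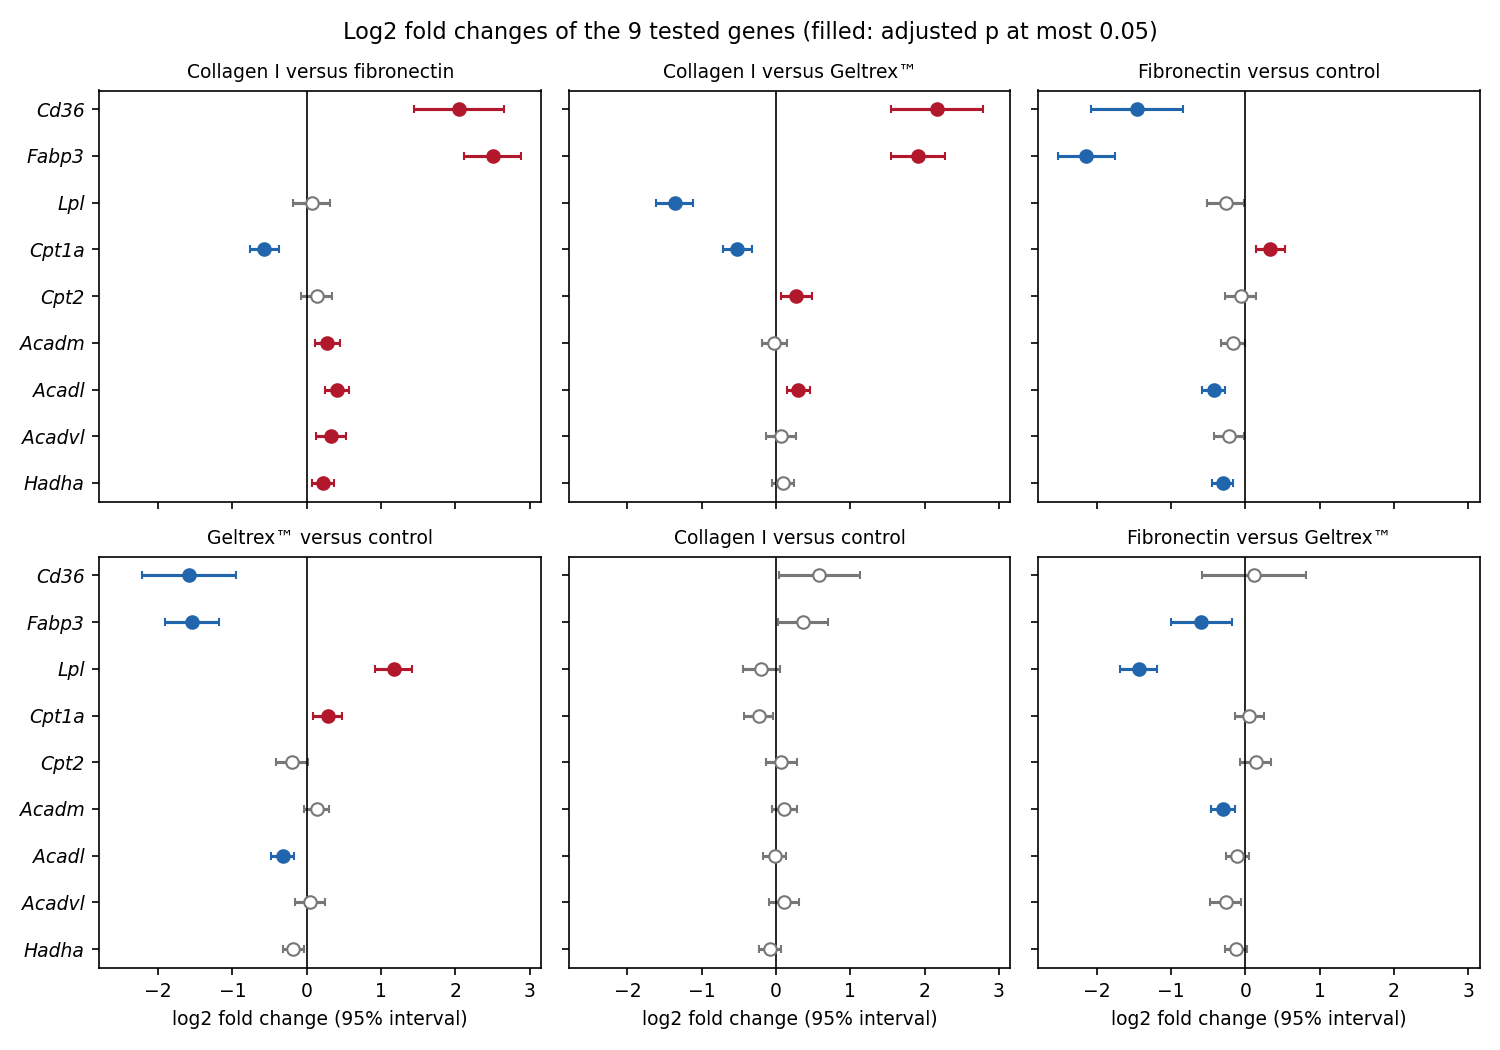
Log2 fold changes of the 9 tested genes in the 6 comparisons, on the horizontal axis, with 95% intervals; filled points have an adjusted p of at most 0.05 in edgeR (red higher, blue lower) and open points do not. *Cd36* and *Fabp3* lie furthest to the right in both comparisons of Collagen I with another coating (1.91 to 2.50), *Lpl* stands out wherever Geltrex™ is compared, and every point of Collagen I versus control is open.

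*Cd36* (chr5:17781690-17888801, minus strand), which encodes the fatty acid translocase, was highest on Collagen I and lowest on fibronectin and Geltrex™. Its level was 10.31, 10.48, and 4.96 CPM on Collagen I, 5.69, 6.68, and 4.80 CPM in the control, 2.56, 2.18, and 1.48 CPM on fibronectin, and 1.37, 1.81, and 2.57 CPM on Geltrex™. All Collagen I and control samples lay above all fibronectin and Geltrex™ samples, and the third Collagen I sample lay within the range of the control. *Cd36* was 4.14-fold higher with Collagen I than with fibronectin (log2 fold change 2.05 ± 0.29 SE, adjusted p = 4.44e-05) and 4.50-fold higher than on Geltrex™ (2.17 ± 0.29, adjusted p = 3.34e-05). Relative to the control it was lower on both fibronectin (−1.46 ± 0.29, adjusted p = 0.00135) and Geltrex™ (−1.58 ± 0.30, adjusted p = 0.000686).

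The difference of *Cd36* between Collagen I and the control was a log2 fold change of 0.58 (95% interval 0.04 to 1.13, adjusted p = 0.305), and it passed the threshold with no filter on low counts (0.59, adjusted p = 0.0323). Without the third Collagen I sample it was 0.85 (adjusted p = 0.0668). *Cd36* was measured by 32 to 282 counts per sample, the fewest of the tested genes of the set. Fibronectin and Geltrex™ differed by 0.12 on the log2 scale (95% interval −0.58 to 0.82, adjusted p = 0.834), an interval that leaves room for a difference in either direction.

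*Fabp3* (chr4:130308595-130315463, plus strand) showed the largest fold change of the set. Its level was 21.97, 22.6, and 18.3 CPM on Collagen I, 18.4, 16.8, and 13.6 CPM in the control, 6.66, 4.86, and 5.19 CPM on Geltrex™, and 4.57, 2.68, and 3.77 CPM on fibronectin. The 4 groups fell in that order, the samples of Collagen I overlapped those of the control only at their edge, and the fibronectin samples all lay below the Geltrex™ samples. *Fabp3* was 5.67-fold higher with Collagen I than with fibronectin (log2 fold change 2.50 ± 0.18 SE, adjusted p = 5.04e-08) and 3.76-fold higher than on Geltrex™ (1.91 ± 0.17, adjusted p = 5.07e-07).

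Relative to the control, *Fabp3* was lower on fibronectin (log2 fold change −2.14 ± 0.18, adjusted p = 3.85e-07) and on Geltrex™ (−1.55 ± 0.17, adjusted p = 5.05e-06). It was also lower on fibronectin than on Geltrex™ (−0.59 ± 0.19, adjusted p = 0.0412), a call that was lost with the Geltrex™ samples summed into 1 (−0.59, adjusted p = 0.222) and without any 1 of 5 single samples, with the highest adjusted p without the first Geltrex™ sample (−0.45, adjusted p = 0.185) and the second fibronectin sample (−0.42, adjusted p = 0.177). Collagen I and the control differed by 0.37 (95% interval 0.03 to 0.70, adjusted p = 0.301). Of the exon bases of *Fabp3*, 19.563% overlap genes on the other strand (*Zcchc17* and *Gm10570*). *Zcchc17* differed by 0.38 between Collagen I and fibronectin, no sample held more than 2 counts of *Gm10570*, and the strand rule of the counting is not given in the sources used here.

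Both *Cd36* and *Fabp3* were higher with Collagen I than with either other coating, and so were the myotube markers. The median log2 fold change of the markers was 2.14 for Collagen I relative to fibronectin and 1.77 relative to Geltrex™ (8 of 8 higher in each). On fibronectin relative to Geltrex™ the marker median was −0.41 (4 of 8 called lower). In that comparison *Fabp3* was at −0.59, whereas *Cd36* was at 0.12 and was not called. The part of the markers in these results was not tested. The ratio of Collagen I to either coating was of similar size for *Myog*, a myogenic factor, at 2.16 and 1.82 on the log2 scale. Among 12319 genes with a mean of at least 1 CPM, those whose centered log2 profile over the 12 samples lay closest to *Fabp3* were *Fxyd6*, *Myog*, and *Smpx*, with root mean square differences of 0.15, 0.18, and 0.20. Those closest to *Cd36* were *Tnfrsf19*, *Myh7*, the slow myosin heavy chain, and *Inpp4b*, with differences of 0.20, 0.25, and 0.28. The level of *Myh7* was 27.1 ± 5.23 CPM in the control (SD, n = 3), 36.7 ± 7.29 CPM with Collagen I, 10.2 ± 1.73 CPM with fibronectin, and 10.02 ± 1.20 CPM with Geltrex™.

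**Figure D2:**
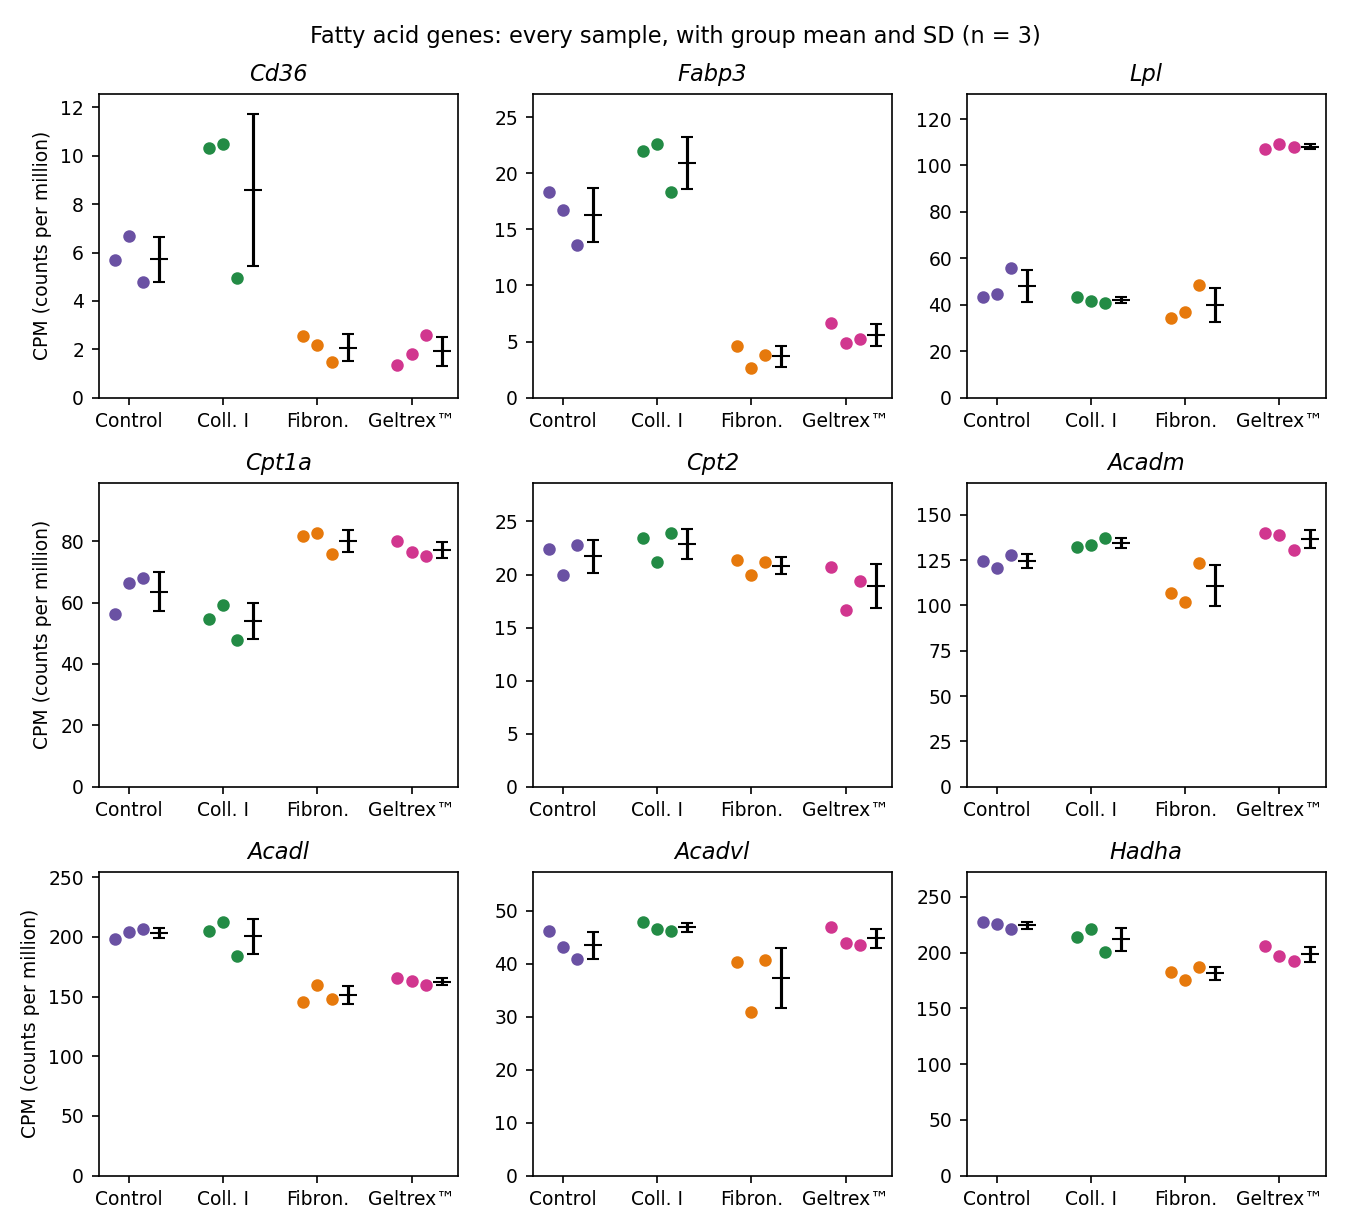
CPM of the 9 tested genes in every sample (points, 1 panel for each gene, vertical axes starting at 0), with the group mean and SD in black beside them (n = 3). *Cd36* and *Fabp3* are low on fibronectin and Geltrex™, the 3 Geltrex™ samples of *Lpl* sit between 107 and 109 CPM above all other samples, and *Cpt1a* is highest on fibronectin and Geltrex™.

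*Lpl* (chr8:68880491-68907448, plus strand), the secreted lipase that frees fatty acids from lipoproteins, was highest on Geltrex™, and only its comparisons with Geltrex™ passed the test. Its level was 107, 109, and 108 CPM on Geltrex™, 43.5, 44.8, and 55.9 CPM in the control, 43.4, 41.5, and 40.8 CPM on Collagen I, and 34.5, 37.0, and 48.4 CPM on fibronectin. The Geltrex™ samples lay far above all the others, which overlapped between control and fibronectin and between fibronectin and Collagen I. *Lpl* was 2.25-fold higher on Geltrex™ than in the control (log2 fold change 1.17 ± 0.12 SE, adjusted p = 1.5e-06). It was lower on Collagen I than on Geltrex™ (−1.37 ± 0.12, adjusted p = 2.8e-07) and lower on fibronectin than on Geltrex™ (−1.44 ± 0.12, adjusted p = 3.89e-07). With the 3 Geltrex™ samples summed into 1, the log2 fold change relative to the control was 1.18 (adjusted p = 0.000355).

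The other differences of *Lpl* did not pass the threshold, namely −0.20 for Collagen I relative to the control (95% interval −0.44 to 0.05), −0.27 for fibronectin relative to the control (−0.51 to −0.02, adjusted p = 0.0946, and −0.42 with adjusted p = 0.00699 without the third fibronectin sample), and 0.07 for Collagen I relative to fibronectin (−0.18 to 0.32). Thus the pattern of *Lpl* differed from that of *Cd36*, with a root mean square difference of 1.38 on the log2 scale, the largest of the 36 pairs of tested genes. The genes closest in profile to *Lpl* were *C1ra*, *Ces2g*, and *Svep1*, with differences of 0.11, 0.18, and 0.19.

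The list of the lipoprotein lipase system holds genes of related lipases besides genes that act with this lipase, so its counts cover both kinds. Of this list 7 of 9 were tested, and 4 were higher and 1 lower on Geltrex™ than in the control (median log2 fold change 0.22). Over all genes tested, 16.4% were higher and 16.6% lower in that comparison. *Angptl4*, an inhibitor of the lipase, was at 14.1, 14.995, and 15.2 CPM on Geltrex™, 8.75, 6.27, and 7.94 CPM in the control, 7.67, 5.80, and 7.76 CPM on Collagen I, and 9.21, 8.75, and 9.32 CPM on fibronectin. Here too the Geltrex™ samples lay above all others, and *Angptl4* was higher than in the control by 0.95 ± 0.14 on the log2 scale (adjusted p = 5.94e-05). *Lrp1*, a receptor that takes up lipoproteins, was also higher on Geltrex™ (0.67, adjusted p = 0.00598), with 1953 to 2263 CPM in those samples and at most 1811 CPM in the others. The maturation factor *Lmf2* rose by 0.22 on Geltrex™, and *Lmf1* did not pass the test (0.10). *Gpihbp1*, the endothelial anchor of the lipase, did not pass the filter.

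*Cpt1a* (chr19:3322334-3385733, plus strand), the gene of the outer-membrane transferase, was the only member lower with Collagen I than with fibronectin. Its level was 54.8, 59.2, and 47.7 CPM on Collagen I, 56.2, 66.3, and 68.1 CPM in the control, 81.7, 82.6, and 75.8 CPM on fibronectin, and 80.3, 76.4, and 75.2 CPM on Geltrex™. All fibronectin and Geltrex™ samples lay above all Collagen I and control samples, an order opposite to that of *Cd36* and *Fabp3*. *Cpt1a* was lower with Collagen I than with fibronectin (log2 fold change −0.57 ± 0.09 SE, adjusted p = 0.000183) and than on Geltrex™ (−0.52 ± 0.09, adjusted p = 0.000444).

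Relative to the control, *Cpt1a* was higher on fibronectin (log2 fold change 0.33 ± 0.09, adjusted p = 0.0117) and on Geltrex™ (0.28 ± 0.09, adjusted p = 0.0271). Both calls were lost without the first control sample (0.25, adjusted p = 0.068, and 0.20, adjusted p = 0.128), and the second was also lost without any 1 of the Geltrex™ samples (adjusted p 0.0542 to 0.0952) and with those samples summed into 1 (0.29, adjusted p = 0.23). The difference between Collagen I and the control was −0.24 (95% interval −0.43 to −0.04, adjusted p = 0.25). The closest profiles to *Cpt1a* were those of *Jak1*, *Tiparp*, and *Sytl2*, with root mean square differences between 0.05 and 0.06. The list of myoblast and dividing cell markers moved in the same direction by its median. Its median log2 fold change was −1.76 for Collagen I relative to fibronectin (4 of 6 lower) and −1.71 relative to Geltrex™ (4 of 6 lower). The part of these markers in the result was not tested.

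*Cpt1b* (chr15:89416405-89425863, minus strand), the muscle isoform, had 0 to 8 counts per sample. In the annotation, 81.376% of its exon bases lie inside exons of *Gm44502*, a gene on the same strand that was at 0 counts in all 12 samples. Reads that fall in 2 genes are dropped by many counting rules, and the rule used is not given in the sources used here. Another 628 exon bases of *Cpt1b* are free of overlap. The part of the overlap in these low counts was not tested, and no fold change or ratio to *Cpt1a* is given. *Chkb*, its neighbor on the same strand, had 13 to 57 counts.

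*Cpt2* (chr4:107903981-107923610, minus strand) varied little. Its level was 23.4, 21.2, and 23.9 CPM on Collagen I, 22.4, 19.96, and 22.8 CPM in the control, 21.4, 19.9, and 21.2 CPM on fibronectin, and 20.7, 16.7, and 19.4 CPM on Geltrex™. Neighboring groups overlapped, and only Collagen I lay wholly above Geltrex™. That was the 1 called difference (log2 fold change 0.27 ± 0.10 SE, adjusted p = 0.0417), and it was lost without the second Geltrex™ sample (0.18, adjusted p = 0.213), with no filter on low counts (0.26, adjusted p = 0.113), with the Geltrex™ samples summed into 1 (0.26, adjusted p = 0.237), and without 4 other single samples. In the other comparisons its log2 fold change lay between −0.20 and 0.14.

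Around the 2 transferases, *Slc25a20*, the carnitine-acylcarnitine translocase, was at 26.0, 23.8, and 22.8 CPM on Collagen I and 19.7, 16.0, and 20.4 CPM on fibronectin, with no overlap. Its log2 fold change was 0.37 (adjusted p = 0.00894). *Crat*, the mitochondrial carnitine acetyltransferase, was higher with Collagen I than with fibronectin (0.44) and on Geltrex™ (0.32), whereas *Aldh9a1*, an enzyme of carnitine synthesis, was lower (−0.39 and −0.35). Of the 7 tested genes of the carnitine system other than the CPT genes of the set, 3 were higher and 1 lower with Collagen I than with fibronectin (median 0.23), and 1 was higher and 1 lower than on Geltrex™ (median −0.07). *Mlycd*, which degrades malonyl-CoA, was higher with Collagen I than with fibronectin (0.56) and Geltrex™ (0.41). *Acaca*, which makes malonyl-CoA, was lower (−0.96 and −0.65). *Acacb*, which also makes it, was near the floor, at a mean of 0.358 CPM over the 12 samples. The list of malonyl-CoA control as a whole had 2 of 7 higher and 2 lower than on fibronectin, and 3 higher and 1 lower than on Geltrex™. Beside both lists, 22.1% of all genes tested were higher and 22.9% lower than on fibronectin, and 18.2% and 19.0% than on Geltrex™.

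Among the 3 acyl-CoA dehydrogenases of the set, the gene for long chains, *Acadl* (chr1:66830839-66863277, minus strand), varied most. Its level was 205, 212, and 184 CPM on Collagen I, 198, 205, and 206 CPM in the control, 165, 163, and 160 CPM on Geltrex™, and 146, 160, and 148 CPM on fibronectin. Both uncoated and Collagen I samples lay above all fibronectin and Geltrex™ samples, without overlap. *Acadl* was higher with Collagen I than with fibronectin (log2 fold change 0.41 ± 0.07 SE, adjusted p = 0.000422) and than on Geltrex™ (0.30 ± 0.07, adjusted p = 0.00456). It was lower than the control on fibronectin (−0.43 ± 0.07, adjusted p = 0.00042) and on Geltrex™ (−0.32 ± 0.07, adjusted p = 0.00324). With the Geltrex™ samples summed into 1, both differences from Geltrex™ kept their size (0.29 and −0.31) but not their call (adjusted p = 0.158 and 0.143). Collagen I and the control differed by −0.02 (95% interval −0.17 to 0.14).

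*Acadm* (chr3:153922357-153944632, minus strand), the gene for medium chains, was lowest on fibronectin. Its level was 107, 102, and 123 CPM on fibronectin, 125, 120, and 128 CPM in the control, 132, 133, and 137 CPM on Collagen I, and 140, 139, and 131 CPM on Geltrex™. Collagen I and Geltrex™ overlapped, and both lay above fibronectin. *Acadm* was higher with Collagen I than with fibronectin (log2 fold change 0.28 ± 0.08 SE, adjusted p = 0.00975) and lower on fibronectin than on Geltrex™ (−0.30 ± 0.08, adjusted p = 0.0133). The first call was lost without the second fibronectin sample (0.22, adjusted p = 0.0524), and the second was lost without any of 4 single samples (adjusted p 0.057 to 0.0674) and with the Geltrex™ samples summed into 1 (−0.30, adjusted p = 0.247). Collagen I and Geltrex™ differed by −0.02 (95% interval −0.19 to 0.14), and whether that differs from the value for *Acadl* was not tested. Relative to the control, *Acadm* on fibronectin was called only without the third fibronectin sample (−0.24, adjusted p = 0.0251).

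*Acadvl* (chr11:70010183-70015411, minus strand), for very long chains, had a similar order. Its level was 40.3, 30.9, and 40.8 CPM on fibronectin, 46.2, 43.3, and 41.0 CPM in the control, 46.9, 43.9, and 43.6 CPM on Geltrex™, and 47.9, 46.6, and 46.2 CPM on Collagen I. The fibronectin samples all lay below the other groups, 1 of them well below. The difference of Collagen I from fibronectin was called (log2 fold change 0.33 ± 0.10 SE, adjusted p = 0.0128), and without the low fibronectin sample it was 0.21 (adjusted p = 0.0613). In the other comparisons the log2 fold change lay between −0.26 and 0.11 and did not pass the test. Of its exon bases, 42.852% overlap *Dvl2* on the other strand, whose log2 fold change between Collagen I and fibronectin was −0.15 (adjusted p = 0.264). The profiles of *Acadm* and *Acadvl* over the 12 samples were the closest of the 36 pairs, with a root mean square difference of 0.09, followed by *Acadl* and *Hadha* (0.10).

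*Hadha* (chr5:30118304-30155162, minus strand) had the most counts of the set, 4191 to 6150 per sample. Its level was 227, 226, and 221 CPM in the control, 214, 221, and 201 CPM with Collagen I, 206, 197, and 193 CPM on Geltrex™, and 183, 175, and 187 CPM on fibronectin. Fibronectin lay below all other groups, and Collagen I overlapped Geltrex™. *Hadha* was lower on fibronectin than in the control (log2 fold change −0.31 ± 0.07 SE, adjusted p = 0.00332) and higher with Collagen I than with fibronectin (0.22 ± 0.07, adjusted p = 0.0162). The latter call was lost with no filter on low counts (adjusted p = 0.102), in a fit of those 6 samples alone (adjusted p = 0.0623), and without any of 3 single samples (adjusted p 0.0524 to 0.0654). On Geltrex™ *Hadha* was at −0.18 relative to the control (adjusted p = 0.0585). That difference passed the threshold with DESeq2 (adjusted p = 0.022) and with at least 10 counts in every sample (adjusted p = 0.0279). It also passed in a fit of the Geltrex™ and control samples alone (adjusted p = 0.0387) and without the third Collagen I sample (adjusted p = 0.0276). In the other alternatives it was not called.

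*Hadhb*, the β-subunit gene that shares the upstream region printed above, was at 114, 120, and 110.4 CPM in the control, 123, 116, and 99.8 CPM with Collagen I, 103, 109.5, and 104 CPM on Geltrex™, and 101, 94.2, and 107 CPM on fibronectin. The fibronectin and Geltrex™ samples all lay below the control, and Collagen I overlapped the other 3 groups. Its log2 fold changes were 0.17 for Collagen I relative to fibronectin and −0.19 for fibronectin relative to the control, and neither passed the test (adjusted p = 0.121 and 0.0958). Whether the 2 subunits differed in their response was not tested.

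Levels between genes were compared per kilobase of exon, with the exons of all annotated transcripts of a gene joined. The joined length was 2005 bases for *Acadl*, 8730 for *Hadha*, and 10478 for *Lpl*, and a longer one lowers the value. The order of the genes thus depends on these lengths. In CPM alone, *Hadha* had group means of 182 to 225 and *Acadl* of 151 to 203. Per kilobase, *Acadl* was the highest in every group, from 75.3 ± 3.70 CPM per kilobase on fibronectin to 101 ± 2.05 in the control (SD, n = 3). *Acadm* (28.3 to 34.9) and *Hadha* (20.8 to 25.7) followed, and *Acadvl* lay between 13.9 and 17.5. *Fabp3* changed its place, since it stood at 25.5 ± 2.83 on Collagen I, beside *Hadha* at 24.3 ± 1.18, and at 4.46 ± 1.15 on fibronectin, beside *Lpl* at 3.81 ± 0.71. These neighbors did not differ beyond their spread. *Cpt1a* (7.06 to 10.48) and *Cpt2* (7.92 to 9.56) were close to each other, and on Geltrex™ *Lpl* reached 10.3 ± 0.10, next to *Cpt1a* at 10.1 ± 0.34. *Cd36* was the lowest tested gene in every group, from 0.534 ± 0.169 on Geltrex™ to 2.39 ± 0.874 on Collagen I.

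**Figure D3:**
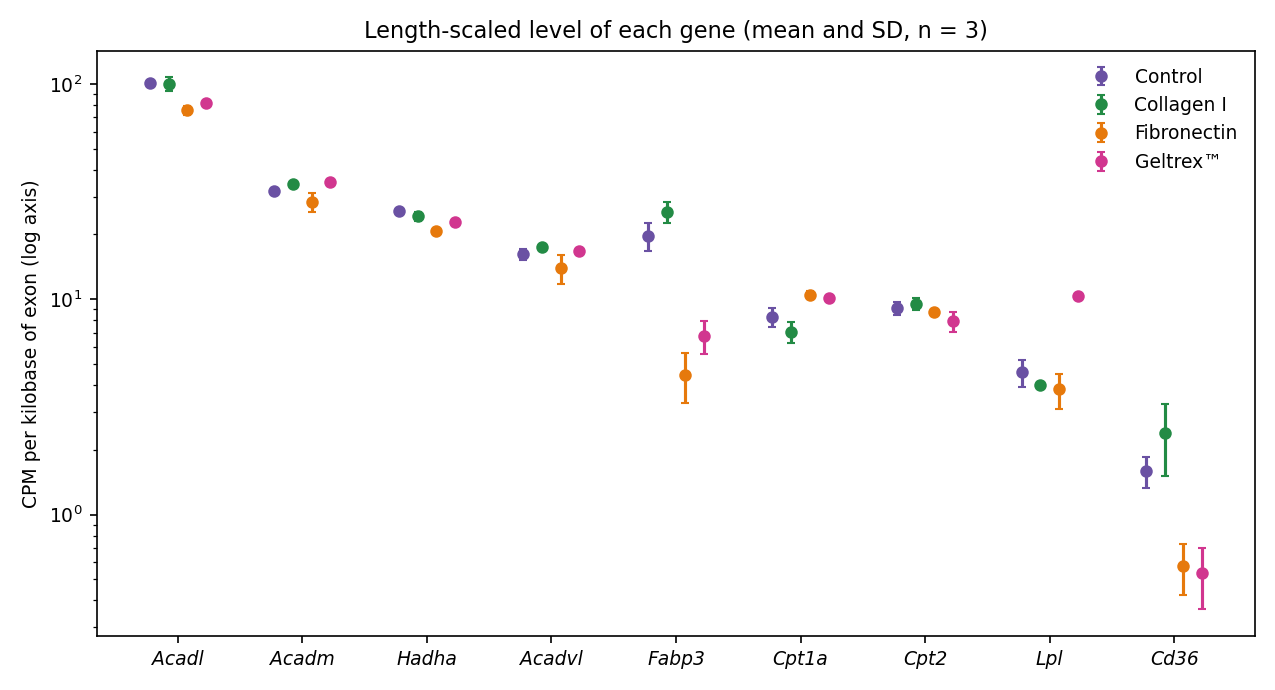
Mean level of the 9 tested genes per kilobase of exon in the 4 groups, on a log axis, with the SD of 3 samples as error bars. *Acadl* is highest at 75.3 to 101 CPM per kilobase, *Cd36* is lowest at 0.534 to 2.39, and *Fabp3* spans the range from 4.46 to 25.5 between fibronectin and Collagen I.

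The neighboring steps of the pathway were described with 10 further lists of genes. On Collagen I, 22.1% of all genes tested were higher and 22.9% lower than on fibronectin, and 18.2% and 19.0% than on Geltrex™. Of the other uptake and binding genes, 2 of 9 tested were higher and 3 lower with Collagen I than with fibronectin (median log2 fold change 0.06), and 1 was higher and 3 lower than on Geltrex™ (0.05). *Dbi*, which binds acyl-CoA, was higher on Collagen I (0.64 and 0.53), whereas *Slc27a1*, the fatty acid transport protein of muscle, did not pass the test (0.18 and 0.05). Of the genes of acyl-CoA activation, 3 of 10 were higher and 4 lower than on fibronectin, and 2 were higher and 1 lower than on Geltrex™. *Acsl1*, a main long-chain acyl-CoA synthetase of muscle, was lower on Collagen I in both (−0.38 and −0.39), the direction of *Cpt1a*. *Acsl3*, a synthetase of the endoplasmic reticulum and lipid droplets, was lower on Collagen I than in the control (−0.62, adjusted p = 0.0351). It was 1 of only 2 genes of the 10 lists that edgeR called in that comparison. DESeq2 also called 1 lipid droplet gene and 1 gene among PPAR targets and regulators higher there.

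The list of other mitochondrial β-oxidation genes also holds acyl-CoA dehydrogenases of branched-chain amino acid breakdown, such as *Acadsb*. Its counts are therefore not of fatty acid oxidation alone. All 15 genes of the list were tested. With Collagen I, 6 were higher than with fibronectin, none was lower, and 9 did not pass the test (median log2 fold change 0.25), beside 22.1% of all genes higher. Relative to Geltrex™ 4 were higher, none was lower, and 11 did not pass (median 0.07), beside 18.2% of all genes higher. None was lower by DESeq2 or at an unadjusted p under 0.05 in either comparison. *Acaa2*, the last enzyme of the cycle for medium and long chains, was higher by 0.48 and 0.40, and *Acads*, the dehydrogenase for short chains, by 0.67 and 0.39. *Hadh* and *Acadsb* did not pass the test in either, with log2 fold changes between −0.19 and 0.03. On fibronectin, 4 were lower than in the control, beside 14.7% of all genes. On Geltrex™ edgeR called none relative to the control. DESeq2 called 1 higher there, and 2 had an unadjusted p under 0.05 in edgeR, 1 in each direction.

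The electron transfer flavoproteins and their oxidoreductase (*Etfa*, *Etfb*, and *Etfdh*), which take up the electrons of the acyl-CoA dehydrogenases, were not called in any comparison in edgeR or DESeq2. Their log2 fold changes on Collagen I were 0.09 to 0.40 relative to fibronectin and −0.02 to 0.20 relative to Geltrex™, with none at an unadjusted p under 0.05, and 1 was under 0.05 in that sense in each of the comparisons of fibronectin and Geltrex™ with the control. Of the peroxisomal genes, 6 of 10 were higher and 1 lower with Collagen I than with fibronectin (median 0.45), beside 22.1% and 22.9% of all genes. Relative to Geltrex™, 2 were higher and 1 lower, beside 18.2% and 19.0%. Of the lipid droplet and lipolysis genes, 4 of 10 were higher and 1 lower than on fibronectin, and 3 were higher than on Geltrex™, among them *Pnpla2*, the triglyceride lipase of droplets (0.50 and 0.64). Among PPAR targets and regulators, 2 of 12 were higher and 3 lower than on fibronectin, and 2 were higher and 2 lower than on Geltrex™. *Pdk4*, a PPAR target that limits glucose oxidation, was the second gene of these lists that edgeR called between Collagen I and the control. It was lower on Collagen I than in the control (−0.64, adjusted p = 0.0226) and than on fibronectin (−0.88). Its level on Geltrex™ was close to that on Collagen I, with group means of 26.4 ± 1.85 and 26.6 ± 3.22 CPM (SD, n = 3).

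**Figure D4:**
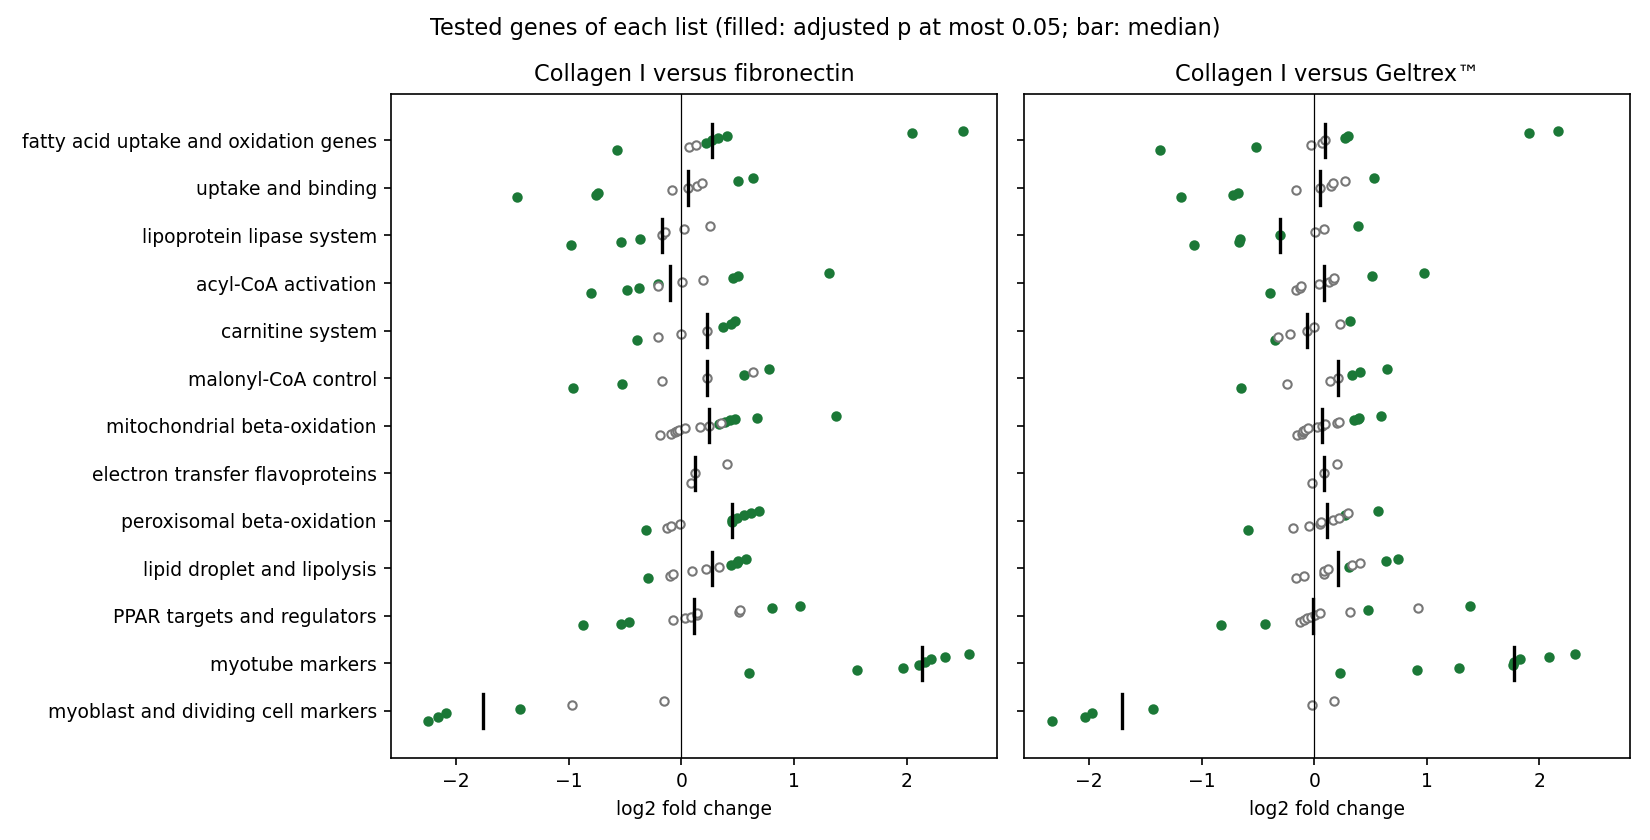
Log2 fold changes of the tested genes of each list for Collagen I versus fibronectin (left) and versus Geltrex™ (right), with filled points for genes that passed the test and a black bar at the median. The medians of the myotube list lie at 2.14 and 1.77. Those of the myoblast and dividing cell list lie at −1.76 and −1.71. The medians of the other lists drawn lie between −0.30 and 0.45. The adipocyte, endothelial, and macrophage marker lists, with 1 tested gene each, are not drawn.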

How the data were processed

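RNA-seq of C2C12GFP cells on 4 surfaces was examined, with 3 samples in each group. Read trimming (Trimmomatic), alignment (HISAT2), and counting (featureCounts) were done by the authors, who deposited raw counts of reads for each gene, neither normalized nor filtered. Tool versions, genome build, and the rules for strand and for reads in several genes are not given in the sources used here. Names, positions, and exon lengths came from GENCODE M21 (GRCm38), which lists all 55536 identifiers.

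All tests used edgeR 4.0.16 (R 4.3.3). After filterByExpr (minimum count 10, minimum total 15) and TMM scaling, the 12 samples entered 1 quasi-likelihood model with 8 residual degrees of freedom, from which 6 comparisons were drawn. Benjamini-Hochberg adjustment ran over the 14499 genes tested. For the SE, the log2 fold change was divided by the square root of F. Profiles were compared as log2 CPM (prior count 2). Nothing says that the replicates came from separate cultures, so p-values measure the spread between these samples, which may be technical.

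The genes, lists, and tests were chosen with earlier results of these data known. All 10 genes are named, and from the other lists only fixed partners and the 3 genes with the highest mean CPM, apart from markers of cell types. For each of the 9 tested genes, the 3 nearest profiles were found among genes with a mean of at least 1 CPM. Promoter windows come from RefSeq on GRCm38.p6.

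Alternatives were DESeq2 1.42.0, RLE normalization, no filter, at least 10 counts in every sample, only the groups compared, the replicate number as a block, the Geltrex™ samples summed into 1, and leaving out each sample. The procedure was run on data simulated for fibronectin versus control, with the real means and library sizes. It passed a limit set for recovering the larger of the planted changes. All planted changes were larger than those of the carnitine and β-oxidation genes described here, so the run does not cover differences of that size.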

Additional observations from a re-analysis of the deposited data

How the results depend on the processing

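The log2 fold changes of the 9 genes in the 6 comparisons gave 54 values. Over the alternatives that kept all samples, 364 of 378 recomputed values kept their direction and their side of the threshold, 10 lost the call, 4 gained one, and none changed direction. RLE normalization changed no call. With no filter on low counts, 1 gene (*Cd36*) was higher on Collagen I than in the control. With the Geltrex™ samples summed into 1, which leaves fewer samples, 1 gene was higher on Geltrex™ than in the control, 2 were higher on Collagen I than on Geltrex™, and 1 was lower on fibronectin than on Geltrex™, and the lone sample is assumed to vary like the other groups. The cause of the first change was not tested.

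Leaving out each sample in turn gave 648 values, of which 616 kept their direction and call. In the counts that moved most, the number of genes higher than the control ranged from 0 to 1 on fibronectin and from 1 to 2 on Geltrex™. The number higher with Collagen I than with fibronectin ranged from 3 to 6, and the number lower on fibronectin than on Geltrex™ from 1 to 3. Other counts moved by a smaller factor. The number higher on Collagen I than on Geltrex™ was 3 without the third Collagen I sample. *Lpl* and *Acadm* were also called lower on fibronectin than in the control without the third fibronectin sample. Changes of direction were limited to 3 differences that were never called, *Acadl* between Collagen I and the control (−0.0589 to 0.0312), *Lpl* between Collagen I and fibronectin (−0.0304 to 0.225), and *Cd36* between fibronectin and Geltrex™ (−0.0769 to 0.380).

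The replicate numbers were not shown to pair the samples, since the correlations of same-numbered deviations lay between −0.15 and 0.23 and were all above 0.1 in 0 of the 6 comparisons. With the replicate block no call changed, and no log2 fold change moved by more than 0.05. The planned ratio of *Cpt1b* to *Cpt1a* was not computed, because *Cpt1b* had at most 8 counts in a sample. Depth limits *Cd36* most, at 32 to 282 counts per sample.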
